A study of Mus musculus with 2 samples.

Results

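A set of 9 genes that encode transcription factors of the hepatocyte was followed through the peak lists of a CUT&Tag experiment on ALKBH5: Foxa1, Foxa2, Foxa3, Hnf4a, Nr1h4, Cebpa, Cebpb, Onecut1 and Prox1. They were chosen by name, with earlier results of these data known. A listed peak was counted for a gene when any base of it lay in the gene or within 5 kb of it. By this rule the 9 genes, of 21887 protein-coding genes, held 3 of the 15711 listed peaks, 2 of 12333 from the ALKBH5 library and 1 of 3378 from the IgG library. The 2 ALKBH5 peaks lay at Foxa2 and near Foxa3, and the IgG peak lay near Foxa3. The other 7 genes had no peak in either list.

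Hepatocyte identity rests on a small set of transcription factors that bind each other's genes and a shared set of liver enhancers. The FOXA proteins are forkhead pioneer factors that can bind their sites in closed chromatin. HNF4A and FXR, the product of Nr1h4, are nuclear receptors, and C/EBP alpha and beta are basic leucine zipper factors. ONECUT1, also called HNF6, and PROX1 are homeodomain factors of liver development. ALKBH5 is known as a demethylase of N6-methyladenosine in RNA, and the series asked whether it also binds DNA to regulate genes.

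The cells were Hepa1-6, a mouse hepatoma line labelled as hepatocyte. Both libraries came from Hepa1-6 cells kept overnight with an adenovirus that carries FLAG-tagged ALKBH5, so no library without the virus was compared. In CUT&Tag, Tn5 transposase tethered to an antibody cuts and tags the DNA around it. There was 1 ALKBH5-FLAG library, whose antibody the labels do not name, and 1 library made with IgG as the background. No difference below therefore has a replicate check, and none was tested. The design text speaks of primary hepatocytes, whereas both samples carry the name of the line. For IgG, one label reads ALKBH6-FLAG although the protocol gives the ALKBH5 virus. Peaks do not measure expression, so the cell type could not be checked against its markers. Of Alb, Afp, Ttr, Apoa1, Apob and Trf, which mark hepatocytes, Afp and Trf had an ALKBH5 peak within 5 kb. Of all protein-coding genes 43.2% had one.

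The number of reads per library is unknown, and depth can be judged only from the peaks. Pileup is the number of fragments stacked at a peak's summit, and fold enrichment is the authors' ratio of pileup to local background. The ratio was taken here with 1 added to both, so a low pileup limits the fold that a peak can reach. The median ALKBH5 peak had a pileup of 9 and a fold enrichment of 5.63, against 5 and 4.79 for the median IgG peak. The lowest listed pileup was 3 for ALKBH5 and 2 for IgG. A gene without a listed peak thus lacks a stack that passed the peak caller, which is not a count of 0. All coordinates are on GRCm38, and gene starts are those of the RefSeq promoter table of GRCm38.p6, which listed 13 starts for the 9 genes.

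The sequences at the starts show what the peaks covered. In the first pair below, 300-base windows that run from 250 bases before a start to 50 after it, capitals mark the bases inside the ALKBH5 peak. The first is the middle of the 3 listed Foxa2 starts (chr2:148045899-148046198, minus strand). The second is the start of Sympk (chr7:19024127-19024426, plus strand), the neighbour that the peak counted for Foxa3 covers.
Foxa2 middle start: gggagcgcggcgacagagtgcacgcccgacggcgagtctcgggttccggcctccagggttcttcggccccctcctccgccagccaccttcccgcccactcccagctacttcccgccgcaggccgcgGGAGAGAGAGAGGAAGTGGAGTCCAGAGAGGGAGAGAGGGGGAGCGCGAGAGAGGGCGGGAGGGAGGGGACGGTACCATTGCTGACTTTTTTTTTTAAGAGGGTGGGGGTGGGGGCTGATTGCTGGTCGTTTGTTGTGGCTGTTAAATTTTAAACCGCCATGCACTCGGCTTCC
Sympk start: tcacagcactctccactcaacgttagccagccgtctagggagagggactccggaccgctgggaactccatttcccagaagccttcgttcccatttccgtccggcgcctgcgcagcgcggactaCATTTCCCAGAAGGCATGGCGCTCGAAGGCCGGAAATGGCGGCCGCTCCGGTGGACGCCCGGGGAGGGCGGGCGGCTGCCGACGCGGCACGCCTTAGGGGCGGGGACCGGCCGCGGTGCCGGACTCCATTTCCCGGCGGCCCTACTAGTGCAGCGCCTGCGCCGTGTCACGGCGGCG

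The start of Foxa3 itself (chr7:19023490-19023789, minus strand) held no base of a peak. Capitals mark its TATA box letters TATAAA and its GGGCGG boxes, the letters that SP1 binds.
Foxa3 start: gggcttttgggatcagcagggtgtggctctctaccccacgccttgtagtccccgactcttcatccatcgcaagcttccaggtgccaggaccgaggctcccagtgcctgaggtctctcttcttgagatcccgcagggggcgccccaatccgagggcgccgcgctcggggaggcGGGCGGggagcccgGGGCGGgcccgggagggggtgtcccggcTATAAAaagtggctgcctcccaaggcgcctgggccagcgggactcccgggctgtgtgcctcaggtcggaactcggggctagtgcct

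Peak-free starts differed in their sequence. In the next windows capitals mark each CG dinucleotide. The Hnf4a windows (chr2:163506607-163506906 and chr2:163546905-163547204, plus strand) held 4 each, and the Cebpb window (chr2:167688665-167688964, plus strand) held 50. The downstream Hnf4a start belongs to the promoter known as P1, which is used in adult liver.
Hnf4a upstream start: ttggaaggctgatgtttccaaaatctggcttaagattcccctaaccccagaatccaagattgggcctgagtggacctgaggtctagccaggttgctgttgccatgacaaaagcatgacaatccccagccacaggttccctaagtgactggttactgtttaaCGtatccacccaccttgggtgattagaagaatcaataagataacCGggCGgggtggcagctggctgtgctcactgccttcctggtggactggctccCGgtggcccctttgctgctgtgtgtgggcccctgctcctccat
Hnf4a downstream start: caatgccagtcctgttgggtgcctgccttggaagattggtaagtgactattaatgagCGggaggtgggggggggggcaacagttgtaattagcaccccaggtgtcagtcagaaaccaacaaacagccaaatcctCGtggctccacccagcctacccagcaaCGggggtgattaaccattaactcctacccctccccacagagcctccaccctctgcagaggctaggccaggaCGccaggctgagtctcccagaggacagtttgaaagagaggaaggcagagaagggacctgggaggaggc
Cebpb start: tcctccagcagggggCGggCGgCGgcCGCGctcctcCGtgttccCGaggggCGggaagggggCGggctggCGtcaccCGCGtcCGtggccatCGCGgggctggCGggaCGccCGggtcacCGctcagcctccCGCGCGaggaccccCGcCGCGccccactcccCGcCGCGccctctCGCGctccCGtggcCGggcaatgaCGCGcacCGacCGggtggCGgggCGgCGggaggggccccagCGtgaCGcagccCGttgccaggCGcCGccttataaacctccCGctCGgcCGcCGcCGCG

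The question for each gene was whether ALKBH5 signal stood at it and whether IgG signal stood there too. An ALKBH5 peak was counted for 2 of the 9 genes, where 43.2% of all protein-coding genes had one. An IgG peak was counted for 1 of the 9, where 12.6% of all genes had one. Neither ALKBH5 peak shared a base with an IgG peak, as was the case for 85.1% of the 12333 ALKBH5 peaks. Peaks of that kind were found at 2 of the 9 genes, beside 37.6% of all genes. No peak of either list was found at 7 of the 9 genes, beside 54.9% of all genes. Peaks with a −log10 q of 5 or more were found at 1 of the 9 genes, Foxa3, beside 26.7% of all genes. Peaks whose nearest listed start was the gene's own were found at 1 of the 9, Foxa2, beside 33.5% of the genes with a listed start. With 9 genes these shares are coarse, since 1 gene more or less moves them by 11.1 percentage points.

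**Figure D1:**
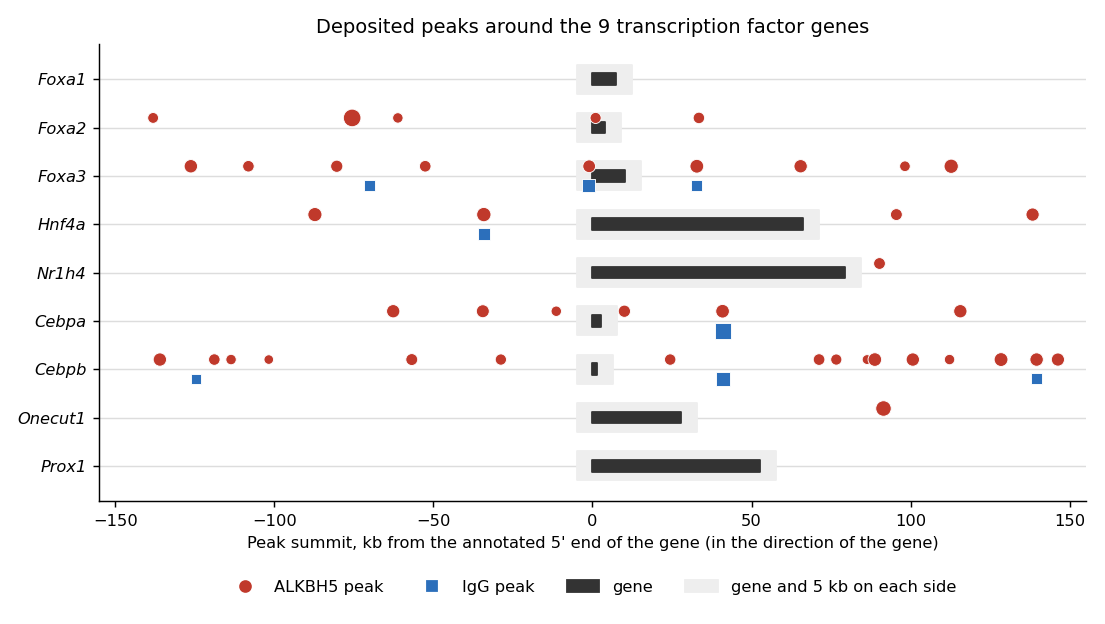
Summits of the deposited ALKBH5 peaks (red circles) and IgG peaks (blue squares) by distance in kb from the annotated 5′ end of each of the 9 genes, in the direction of the gene, out to 150 kb. Symbol area grows with fold enrichment, black bars are genes and grey bars add 5 kb on each side. Peaks fall in the grey bars of Foxa2 and Foxa3 only, and none lies within 150 kb of the 5′ end of Foxa1 or Prox1.

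Foxa2 was the gene with a peak on its own body. Foxa2 (chr2:148042877-148046969, minus strand) encodes the FOXA factor known for bile acid and lipid control in liver. Its ALKBH5 peak lay at chr2:148045873-148046072, and its summit was 29 bp upstream of the middle listed start. The pileup was 10 fragments (95% exact Poisson interval 4.8 to 18.4, counting error only) and the fold enrichment 4.74. The peak was 200 bp wide, the smallest width in the list, which 2132 peaks shared. Its pileup was above that of 55.4% of ALKBH5 peaks, but its fold was above that of only 22.6%. The background implied by pileup and fold was 1.32 fragments at this place, against a median of 0.68 over the list. The nearest IgG peak was 626 kb away, at Nxt1.

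Among the ALKBH5 peaks within 100 kb of any of the 9 genes, the one with the highest fold was on the Foxa2 side. It lay at chr2:148122187-148122657, 75.2 kb from the gene on its upstream side, with a pileup of 18 and a fold enrichment of 11.9. That fold was above those of 99.3% of ALKBH5 peaks. No annotated gene lay at this peak, nor did an IgG peak overlap it. The nearest end of a protein-coding gene was that of Foxa2, and no other protein-coding gene lay within 100 kb of Foxa2. The 2 weaker ALKBH5 peaks away from the gene in the same stretch had folds of 5.07 and 4.17, the first of them inside the lncRNA gene 9030622O22Rik.

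The peak counted for Foxa3 lay on its neighbour. Foxa3 (chr7:19013283-19023539, minus strand) encodes the FOXA factor that is abundant in adult liver. Its ALKBH5 peak at chr7:19024250-19024697 began 711 bp beyond the 5′ end of the gene and spanned the start of Sympk, which is read in the opposite direction and encodes symplekin, a scaffold of mRNA 3′ end processing. The summit was 1035 bp from the Foxa3 start and 197 bp from the Sympk start. The pileup was 10 (4.8 to 18.4), as at Foxa2, but the fold was 6.25, above that of 64.9% of the list, over an implied background of 0.76 fragments. The IgG peak lay at chr7:19024745-19025043, inside Sympk, with a pileup of 7 (2.81 to 14.4) and a fold of 6.85. The ALKBH5 and IgG peaks were 47 bases apart and their summits 231 bp apart.

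Foxa1 lay farthest from any listed peak. Foxa1 (chr12:57540628-57548029, minus strand) acts beside Foxa2 in the onset of liver development. Its nearest ALKBH5 peak was 343 kb away, at the start of Slc25a21, with a pileup of 5 and a fold enrichment of 4.84. Its nearest IgG peak was 1704 kb away, at the start of Brms1l. Of all protein-coding genes, 88.8% had a nearer ALKBH5 peak and 94.2% a nearer IgG peak.

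Neither nuclear receptor gene had a peak. Hnf4a (chr2:163506811-163572907, plus strand), whose product controls a large share of liver genes, had its nearest ALKBH5 peak 29.4 kb beyond its 3′ end, over an end of Ttpal, with a pileup of 7 and a fold enrichment of 5.41. On the upstream side an ALKBH5 peak 33.4 kb away at the start of Fitm2, a gene of lipid droplet formation, had a pileup of 21 and a fold of 7.86. That peak overlapped an IgG peak (pileup 7, fold 6.29). The 4 ALKBH5 peaks within 100 kb of Hnf4a each covered an end of another gene, namely Oser1, Fitm2, Ttpal and Serinc3. Nr1h4 (chr10:89454234-89533645, minus strand) encodes the bile acid receptor FXR. Its only ALKBH5 peak within 100 kb lay 10.6 kb beyond its 3′ end, near the start of Gas2l3, with a pileup of 7 and a fold enrichment of 5.33, and its nearest IgG peak was 291 kb away.

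Cebpa and Cebpb had no peak within 5 kb but had ALKBH5 peaks farther out on either side. Cebpa (chr7:35119293-35121928, plus strand) encodes C/EBP alpha, a factor of hepatocyte and adipocyte maturation. Its nearest ALKBH5 peak, 7.3 kb downstream in the lncRNA gene Gm35724, had a pileup of 6 and a fold of 5.74 and was the first peak outside the 5 kb limit, and the peaks inside it that lay farthest from their gene were the Foxa3 pair at 711 and 1206 bp. A further peak 38.0 kb downstream had a pileup of 14 in each list, with a fold of 7.14 for ALKBH5 and 9.7 for IgG. On the upstream side, 62.5 kb away, an ALKBH5 peak with a fold of 6.77 lay at the start of Cebpg, another C/EBP gene. Cebpb (chr2:167688915-167690432, plus strand) encodes C/EBP beta, a factor of the acute phase response. It had 8 ALKBH5 peaks within 100 kb, the most of the 9 genes, the nearest 22.8 kb downstream with a pileup of 7 and a fold enrichment of 5.0. The tallest, 86.8 kb downstream in the noncoding genes Gm14321 and Gm32287, had a pileup of 35 over an implied background of 4.08 fragments and a fold of 7.09. The implied backgrounds of the 8 ran from 0.6 to 4.12 fragments, and 7 of them were above the list's median of 0.68.

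The homeodomain genes lay in stretches with few peaks. Onecut1 (chr9:74861921-74889648, plus strand) had 1 ALKBH5 peak within 100 kb, 63.3 kb away at the start of Fam214a, with a pileup of 13 and a fold enrichment of 9.21, above that of 95.8% of the list. Prox1 (chr1:190118035-190170827, minus strand) had none within 100 kb. Its nearest ALKBH5 peak was 196 kb away at the start of Smyd2, with a pileup of 9 and a fold enrichment of 6.25, and its nearest IgG peak 212 kb away had a pileup of 3.

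**Figure D2:**
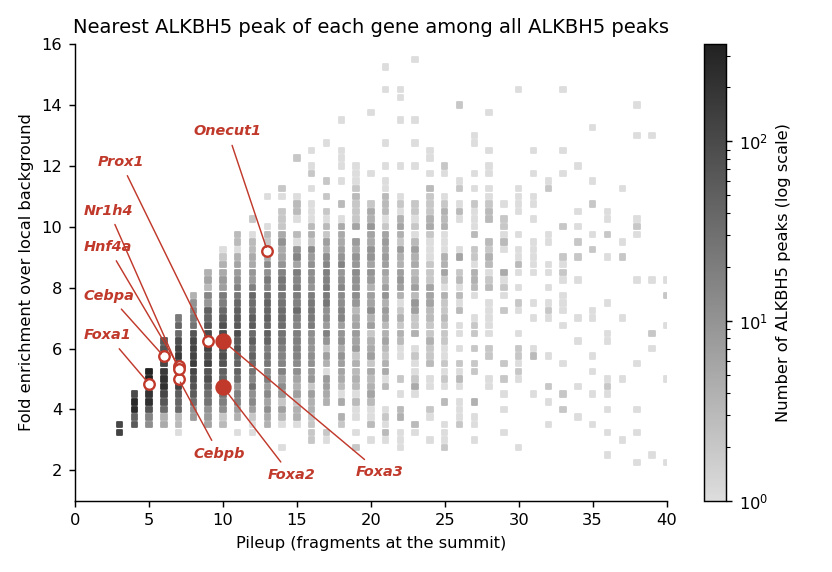
Pileup in fragments against fold enrichment for ALKBH5 peaks, with the nearest ALKBH5 peak of each of the 9 genes in red, filled where it lies in the gene or within 5 kb. Grey squares show the number of ALKBH5 peaks on a log scale, and the axes end at a pileup of 40 and a fold of 16. Foxa2 and Foxa3 share a pileup of 10 but differ in fold, 4.74 against 6.25, and the Onecut1 peak stands highest at 9.21.

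Distances do not rest on a fixed limit. The ALKBH5 peak nearest to a gene was at a median of 22.8 kb over the 9 genes and 13.5 kb over all protein-coding genes. At 0 kb, counting the gene alone, 1 of 9 genes had an ALKBH5 peak beside 36.1% of all genes, and at 1 kb 2 of 9 beside 39.2%. At 10 kb the count was 3 of 9 beside 47.4%, at 25 kb 5 of 9 beside 56.6%, and at 100 kb 7 of 9 beside 74.8%. For IgG, 1 of 9 genes had a peak at 25 kb beside 21.0% of all genes, and 4 of 9 at 50 kb beside 29.4%. These counts are nested, so the points of the curves are not independent.

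**Figure D3:**
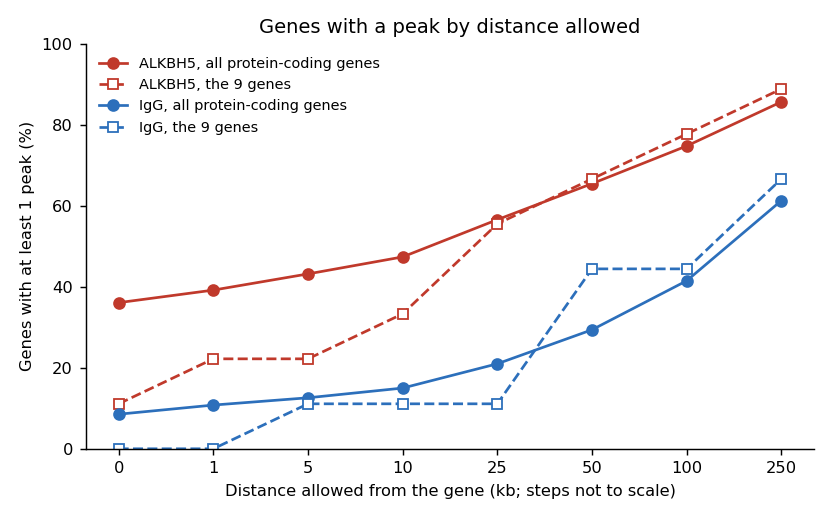
Percent of genes with at least 1 peak against the distance allowed from the gene in kb, for ALKBH5 (red) and IgG (blue), over 21887 protein-coding genes (filled, solid) and the 9 transcription factor genes (open, dashed). Up to 10 kb the ALKBH5 line of the 9 genes lies below that of all genes, and from 25 kb on these lines run close together.

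The stretches around the 9 genes differed in their number of peaks. Foxa1 and Prox1 had 0 peaks of either list within 100 kb, and Cebpb had 8 ALKBH5 peaks. Within 100 kb the 9 genes had a median of 4 ALKBH5 peaks, where all protein-coding genes had a median of 2. In all, 30 ALKBH5 peaks lay within 100 kb of the 9 genes, with a median fold of 5.58 and a range from 3.71 to 11.9. Of the 30, 3 overlapped an IgG peak, beside 1835 of the 12333 in the whole list. An end of a protein-coding gene was covered or within 1 kb in 13 of the 30, beside 50.2% of all ALKBH5 peaks. Of the 9 nearest ALKBH5 peaks, 1 had its summit within 1 kb of a start of the gene itself, at Foxa2, and 5 within 1 kb of a start of another gene. Over the whole list 46.9% of summits lay within 1 kb of a listed start. Gene length was looked at as well. Genes under 10 kb had an ALKBH5 peak in 28.2% of cases and genes of 50 kb or more in 54.7%, with 49.9% for those between. Of the 9, 1 of the 4 under 10 kb had a peak (Foxa2, and not Foxa1, Cebpa or Cebpb), 1 of 2 between (Foxa3, and not Onecut1), and 0 of the 3 of 50 kb or more (Hnf4a, Nr1h4 and Prox1).

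Peaks were more frequent at starts rich in CpG. A start with a ratio of 0.6 or more was listed for 7 of the 9 genes, and for 8896 of the 17492 genes with a listed start. This ratio was the number of CG dinucleotides in the 300-base window over the number expected from its C and G content. Of 21263 listed starts of protein-coding genes, 3.09% had an ALKBH5 peak within 1 kb where this ratio was under 0.3, 22.4% where it was 0.3 to 0.6, and 55.2% where it was 0.6 or more. The IgG shares were 0.588%, 4.09% and 11.3%. Of the 7 genes with a ratio of 0.6 or more at a start, 2 had an ALKBH5 peak within 1 kb of a start, namely Foxa2 and Foxa3. Over all genes with such a start the share was 55.3%. The 5 without were Cebpb with a ratio of 1.03, Onecut1 with 0.95, Foxa1 with 0.93, Cebpa with 0.85 and Prox1 with up to 0.81. The Foxa3 start had a ratio of 0.62 and the Sympk start, which the peak covers, 1.04. The Hnf4a starts had the lowest ratios, 0.18 and 0.16, and the Nr1h4 start had 0.45. Counting all 9 genes, 2 had an ALKBH5 peak within 1 kb of a start, where 32.9% of the 17492 genes with a listed start had one. For IgG 0 of 9 had one, beside 6.59%.

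**Figure D4:**
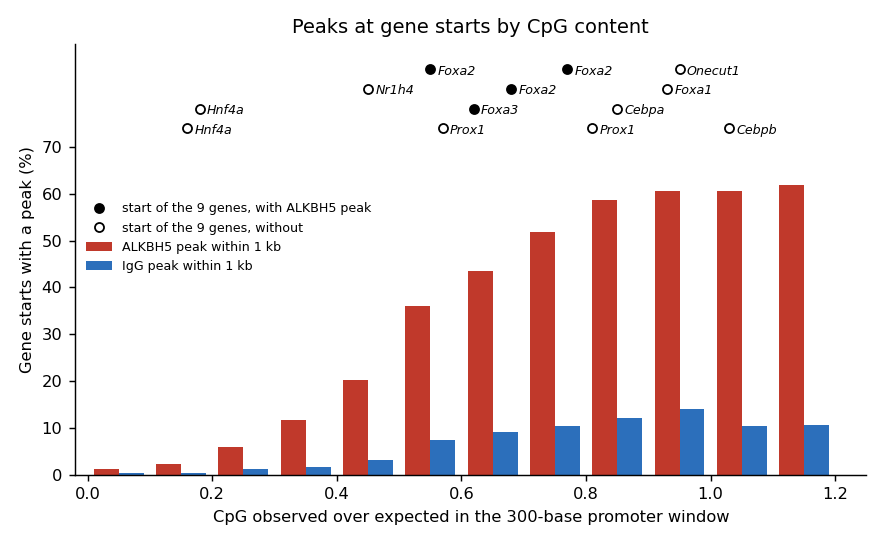
Percent of gene starts with an ALKBH5 peak (red) or IgG peak (blue) within 1 kb, by the ratio of observed to expected CpG in the 300-base promoter window. Circles above the bars place the 13 starts of the 9 genes, filled where an ALKBH5 peak lies within 1 kb. The open circles of Cebpa, Foxa1, Onecut1, Cebpb and 1 Prox1 start stand above bars of 58.6 to 60.7%.

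The 13 windows were searched for letters that the factors themselves bind, and for these each count was at most 2 windows. On either strand, TGTTTAC, the core of the FOXA motif, occurred in the Foxa1 window alone among the 13, and in 3.01% of the 21263 windows. AAAGTCC, part of the HNF4A motif, occurred in the Nr1h4 window (4.15% of all), as did AGGTCA, the core that nuclear receptors bind, (14.7%). ATCAAT, the ONECUT core, occurred in the upstream windows of Hnf4a and Foxa2 (6.54%), and TTGCNNAA, the C/EBP core, in none of the 13 (10.2%). The window of the middle Foxa2 start, which the peak covers in part, held none of these 5. It had 2 GGGCGG boxes, 1 of them among the bases in the peak, and 1 CCGGAA, the core bound by ETS factors, outside the peak. Boxes of GGGCGG stood in 10 of the 13 windows and in 46.2% of all. The TATAAA box stood in 5 of 13, those of Cebpa, Cebpb, Foxa2, Foxa3 and Prox1, and in 12.6% of all. CCAAT was found in 6 of 13 (38.2%), while TGACGT (8.49%) and CACGTG (7.84%) were found at Onecut1 only. A match describes letters and not a bound site.

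Further transcription factor genes of the hepatocyte were counted by the same rule. An ALKBH5 peak was counted for 19 of 32 such genes (59.4%, beside 43.2% of all genes). This count depended on the rule. Within the gene alone (0 kb) it was 12 of 32, beside 36.1% of all genes. It was 12 with a fold of 5 or more, beside 34.9%, and 11 with a −log10 q of 5 or more, beside 26.7%. A peak that shared no base with an IgG peak was found at 17 of the 32, beside 37.6% of all genes. With a start listed for 26 of the 32, 7 had an ALKBH5 peak within 1 kb of a start, beside 32.9% of all genes with a listed start. The median of the highest fold per gene was 5.81, beside 6.14 over the 9446 protein-coding genes with a peak. The highest folds were at Tef, a PAR leucine zipper factor of the clock output (10.3, summit 60 bp from a start), and Zbtb20. Zbtb20, a repressor of alpha-fetoprotein, had 9.12, with the summit 371795 bp from its nearest listed start. Tbx3, a T-box factor of liver growth without a listed start, followed with 8.46. Nr2f6, an orphan receptor, had 7.19 at a summit 10631 bp from its own nearest listed start. An ALKBH5 peak also lay within 1 kb of a start of Nr2f6. Nr1h3, which encodes the oxysterol receptor LXR alpha, and Ppara, the receptor of fatty acid oxidation, each had 6.88. Their summits lay 11730 and 75944 bp from the nearest listed start of the gene itself. Distances to starts of other genes are not given for these lists. IgG peaks lay at 6 of the 32 (18.8%, beside 12.6% of all genes). Among these were Tef with a fold of 5.99, Zbtb20 with 6.29, Tbx3 with 3.86, Nr1h3 with 5.69 and Nfix with 8.12. All peaks at Tef and Zbtb20 in the ALKBH5 list overlapped an IgG peak. The lists were picked with earlier results in view, so the difference between 2 of 9 and 19 of 32 was not tested.

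Relatives of the 9 genes in the same families were counted next. Of 11 paralogs, 5 had an ALKBH5 peak (45.5%, beside 43.2% of all genes) and 1 an IgG peak (9.09%, beside 12.6%), shares close to those over all genes. Among the C/EBP genes Cebpg (fold 6.77, pileup 12) and Ddit3 (5.14, pileup 25) had a peak 111 and 116 bp upstream of a start, while Cebpd and Cebpe, like Cebpa and Cebpb, had none. Ddit3 encodes CHOP, the C/EBP factor of the stress response. Onecut2 had a peak (fold 5.22, pileup 6), while Onecut1 and Onecut3 had none. Among relatives of Nr1h4, Nr1h2, which encodes LXR beta, had 7.59 and Nr1h3 6.88. Nr1h3, also among the 32 genes above, had an IgG peak that shared no base with its ALKBH5 peaks. Nr1h5 had no ALKBH5 peak. Hnf4g and Prox2 had none either.

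Genes that these factors are known to control in hepatocytes were counted too. Of 24 target genes, 4 had an ALKBH5 peak (16.7%, beside 43.2% of all genes) and 1 an IgG peak (4.17%, beside 12.6%). The IgG peak (fold 6.22) was at G6pc, the glucose-6-phosphatase gene, which had no ALKBH5 peak. The 4 with an ALKBH5 peak were Afp, Apoa2, Slc10a1 and Trf. Afp, the alpha-fetoprotein gene, had a fold of 7.53 with its summit 14337 bp from its own nearest listed start. Apoa2, an apolipoprotein gene, had 5.74, Slc10a1, the bile acid importer gene, 5.32, and Trf, the transferrin gene, 5.08. The Apoa2 peak had the same fold and pileup (16) as the peak of Nr1i3, among the 32 genes above. Whether these are the same peak was not checked. The genes of albumin, fibrinogen (Fga, Fgb and Fgg), Cyp7a1 and Abcb11 were among those with no peak in either list.

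**Figure D5:**
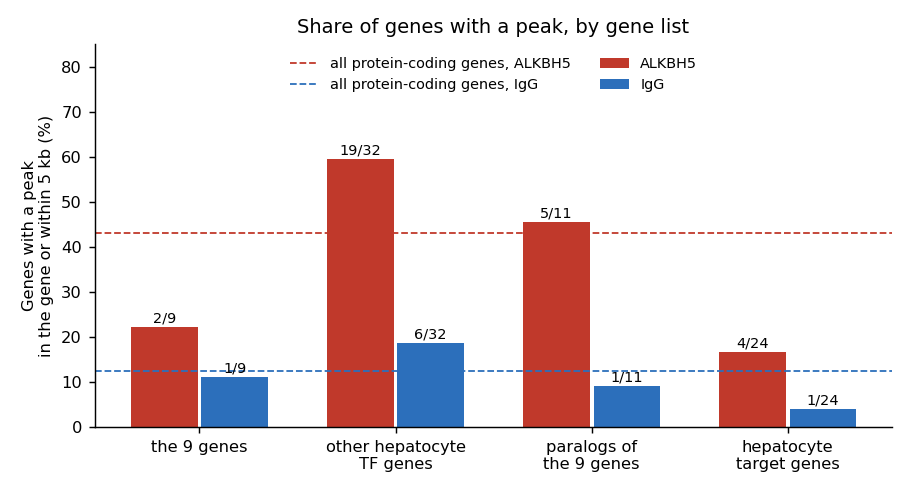
Percent of genes with an ALKBH5 peak (red bars) or IgG peak (blue bars) in the gene or within 5 kb, for the 9 transcription factor genes and 3 further lists, with the number of genes over each bar. Dashed lines give the shares over all protein-coding genes, 43.2% for ALKBH5 and 12.6% for IgG. The bars of the 9 genes and of the target genes end below the red line, and that of the other transcription factor genes above it. Nr1h3 is counted in both the paralog list and the list of other transcription factor genes.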

How the data were processed

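One peak table per library was used, in the MACS2 layout per the file headers. The build was GRCm38 (mm10), and the tools were Bowtie2 2.2.9, MACS2, SAMtools 1.3.1 and R 3.4.1, per the submitters' processing notes. Their settings, and whether IgG served as a control in calling, are unknown. The deposited pileup is a coverage signal in fragments. The deposited fold enrichment is a ratio, taken here as pileup plus 1 over local background plus 1, and the implied background was solved from it. The deposited −log10 p and −log10 q columns had lost their headers and were taken by position: the −log10 p matched a Poisson tail of pileup and background within 1% plus 0.01 in 100% of ALKBH5 and 99.53% of IgG peaks. Every q-value in the deposited lists was below 0.05, the largest being 0.0494.

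Genes and promoter windows came from RefSeq tables of GRCm38.p6, with symbols matched for all members and lists, Tf through its synonym Trf. Starts were listed for 79.9% of protein-coding genes and all 9 members. Exons were not used here. Python 3.11.15, pandas 2.3.3 and scipy 1.17.1 were used, and interval code was tested on simulated data. Each group was 1 library, with peaks listed per library, so no test was made. Counts were set beside those over all protein-coding genes of the autosomes, X and Y. Intervals on pileups are 95% exact Poisson and cover counting error only. All 9 members were described, and from each further list up to 6 genes of highest fold and the genes with an IgG peak, of which 1 is not reported here. The members and lists were chosen with earlier results of these data known. Windows, peak thresholds and overlap rules were varied.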

Additional observations from a re-analysis of the deposited data

How the results depend on the processing

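Of 50 alternatives over 8 counts, 29 stayed within 1.5 times of the count and 21 did not, the small counts moving by 1 or 2 genes. Counting the gene alone (0 kb) left 1 of the 9 genes with an ALKBH5 peak, Foxa2, with 1 peak. It left 1 gene with a peak free of IgG overlap and 0 genes with an IgG peak. Of the 32 other transcription factor genes 12 kept an ALKBH5 peak at 0 kb, beside 36.1% of all genes. At 1 kb 0 of the 9 had an IgG peak. With a −log10 q of 5 or more, 1 of the 9 genes had an ALKBH5 peak, Foxa3, with 1 peak, 1 free of IgG overlap and 1 at a gene start. So had 11 of the 32 other transcription factor genes and 2 of the 24 target genes, beside 26.7% of all genes. With a fold of 5 or more the counts for the 9 genes were again 1 each, with Foxa3 kept and Foxa2 lost. Of the 32 other transcription factor genes 12 had such a peak, beside 34.9% of all genes. When an IgG peak within 1 kb counted as shared, 1 gene, Foxa2, had an ALKBH5 peak without one. With 250 bp from the start, 1 gene had a start peak. Under a rule chosen after the data were seen, that the nearest listed start be the gene's own, 1 gene and 1 peak remained, at Foxa2, where 33.5% of the genes with a listed start qualified. Each of the 2 ALKBH5 peaks was thus lost under some rule. No paired analysis was possible because each group holds 1 library. Depth is unknown, and stacks below the caller's threshold are not listed.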
